A study of Mus musculus with 27 samples.

Results

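The genes described here are 37 genes of fatty acid oxidation and of the PPAR transcription factors, in mouse gastric organoids. They were chosen by symbol from a list of PPAR factors, PPAR targets and enzymes of mitochondrial and peroxisomal fatty acid oxidation, out of 56691 genes in the count table. All 37 were found, and 32 of them had enough counts to be among the 15115 genes tested. RNA was sequenced from 21 organoid libraries in 7 groups of 3. Gpx4 KO organoids came from Gpx4F/F;Mist1Cre/ERT2;RFPLSL animals and were sampled at passages 5, 10 and 15. WT Mist1+ organoids came from Mist1Cre/ERT2;RFPLSL animals and were sampled at the same passages. Mist1- organoids, with the genotype label WT, were sampled at passage 5. Each group was grown from dissociated stomach of adult mice, in Matrigel and proliferating medium. In both lines Mist1 sequences drive a tamoxifen-dependent Cre, and RFP marks the cells in which Cre has acted. The protocol describes a sort of RFP+ cells for every group, and how Mist1- cells were taken is not given in the sources used here. The series title names oxidative stress as its subject. The labels do not say when Cre was induced, how many mice were used or whether libraries of 1 group stem from separate cultures. All p-values therefore set a difference against the spread between these libraries, which may be technical. They do not extend to other mice or cultures.

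Peroxisome proliferator-activated receptors (PPARs) are nuclear receptors that bind fatty acids and their derivatives. Paired with a retinoid X receptor, they bind repeated copies of a short DNA hexamer near their target genes, many of which take up, store or burn fat. Long-chain fatty acids are joined to coenzyme A, carried into mitochondria as carnitine esters and shortened by β-oxidation, and electron transfer flavoprotein passes the electrons on to the respiratory chain. Peroxisomes shorten very long and branched chains. GPX4, a selenium-containing peroxidase, detoxifies oxidised lipids in membranes. Mist1 (gene Bhlha15) is a transcription factor found in chief cells of the stomach and in other secretory cells.

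Promoter windows of 250 bases before to 50 bases after each start site, from RefSeq on GRCm38.p6, were at hand for 31 of the 37 genes (34 windows). They were searched on both strands for the PPAR element, 2 copies of a hexamer 1 base apart. The loose form AGGNCANAGGNCA was in 0.381% of all 32851 windows and in 1 of the 34, that of Fabp1. The strict form AGGTCANAGGTCA was in 0.0396% of all windows and in none of the 34. A single hexamer AGGTCA, which also lies inside the strict form, was in 16.3% of all windows and in 9 of the 34, those of Acadm, Acadvl, Cd36, Cpt1a, Echs1, Fabp1, Plin2 and Pparg. The Fabp1 window is printed because it alone held the loose repeat, which starts at position -67 from the start site and is in capitals. The Plin2 window is printed because Plin2 differed in all 3 comparisons of KO with WT organoids, and its hexamer (on the other strand, in capitals) starts at -218. The last sequence lies between the RefSeq start sites of Hadha and Hadhb, 273 bases apart and facing away from each other, with the start bases in capitals. In GENCODE M21 Hadha reaches 30155162 and Hadhb begins at 30155248, so part of this sequence lies within Hadha there. These 2 genes encode the subunits of the mitochondrial trifunctional protein.
Fabp1, chr6:71199629-71199928, plus strand: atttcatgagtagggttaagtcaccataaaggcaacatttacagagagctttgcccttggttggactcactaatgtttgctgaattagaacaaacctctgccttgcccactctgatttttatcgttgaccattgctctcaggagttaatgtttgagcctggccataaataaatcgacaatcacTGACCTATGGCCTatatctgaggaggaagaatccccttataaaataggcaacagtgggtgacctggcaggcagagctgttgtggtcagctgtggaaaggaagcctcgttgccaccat
Plin2, chr4:86670010-86670309, minus strand: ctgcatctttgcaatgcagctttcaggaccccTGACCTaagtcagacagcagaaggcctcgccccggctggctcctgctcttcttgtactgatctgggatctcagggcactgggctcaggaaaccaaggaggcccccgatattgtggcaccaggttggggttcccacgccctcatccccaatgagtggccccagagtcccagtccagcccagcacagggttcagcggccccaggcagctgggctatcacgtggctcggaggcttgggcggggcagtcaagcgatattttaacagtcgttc
Hadha to Hadhb, chr5:30154980-30155253, plus strand: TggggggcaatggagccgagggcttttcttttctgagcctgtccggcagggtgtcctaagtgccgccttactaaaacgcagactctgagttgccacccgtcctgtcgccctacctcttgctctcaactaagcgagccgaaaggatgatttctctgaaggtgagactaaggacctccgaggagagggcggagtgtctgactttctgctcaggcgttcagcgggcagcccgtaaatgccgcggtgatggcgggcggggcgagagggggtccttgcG
A match in these windows is a description of letters, not a binding site.

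The libraries held 13805585 to 19608956 counts in genes. Levels below are CPM, that is counts scaled to 1 common library total after TMM scaling, and levels compared between genes are FPKM, which divides by exonic length. Gpx4 had 98.2 to 101 CPM in KO and 124 to 134 CPM in WT libraries of passage 5. At passage 10 it had 88.1 to 101 CPM in KO and 112 to 125 CPM in WT libraries, and at passage 15 it had 83.1 to 87.8 CPM in KO and 104 to 195 CPM in WT libraries. The KO libraries were lower each time without overlap, but most of the message remained, and the labels do not say which exons the floxed allele loses. Bhlha15 had 5.02 to 6.21 CPM in the organoids labelled Mist1+ at passage 5, against 8.61 to 12.8 CPM in those labelled Mist1-, so its message did not follow the labels. Summed over 10 gastric epithelial markers, the level was 7701 to 15000 CPM in all libraries. The 4 chief cell markers summed to 10.0 to 38.2 CPM, all from Pgc and Bhlha15, while Lipf and Pga5 had no counts in any library. The 5 adipocyte markers summed to 18.4 to 43.9 CPM, with Lipe the highest at up to 43.2 CPM, while Adipoq and Plin1 had no counts. The 8 intestinal markers summed to 441 to 1418 CPM, with Apoa1 the highest at up to 1086 CPM. Cdx1 had counts only in WT organoids of passage 15, and Sis only in KO organoids of passage 5. Alpi and Apoa4 were also at 0 in some groups. Parietal cell markers summed to at most 4.43 CPM, endothelial ones to 1.95, fibroblast ones to 2.44 and hepatocyte ones to 3.31, and 5 macrophage and immune markers summed to 2.85 to 18.3 CPM. The 3 WT libraries at passage 15 stood apart, with a biological coefficient of variation of 21.06% against 1.89% to 3.07% in the other groups. Each gene's spread was estimated over all 21 libraries, so this group enters the p-values of every comparison. Beside those comparisons where it matters, calls from the compared groups alone are also given.

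In FPKM, abundant members included enzymes of both organelles. Etfa, a subunit of electron transfer flavoprotein, had group means of 62.9 to 80.6 FPKM. Acadl, the long-chain acyl-CoA dehydrogenase, had 58.6 to 70.2 FPKM, and Acaa2, the last thiolase of mitochondrial β-oxidation, had 32.2 to 59.2 FPKM. The peroxisomal Hsd17b4, at 31.3 to 42.3 FPKM, was above Acaa2 in KO organoids of passage 5 (36.7 against 35.3 FPKM) and in Mist1- organoids (37.5 against 32.2 FPKM). Well below these were the peroxisomal Ehhadh (2.03 to 8.97 FPKM) and the lipid droplet protein gene Plin2 (1.76 to 6.44 FPKM). Among the receptors, Pparg was at 6.30 to 20.75 FPKM, Ppard at 8.57 to 16.85 FPKM and Ppara at 0.0933 to 0.31 FPKM. Pparg was thus above Ppard in the WT Mist1+ organoids at each passage, for example 20.75 against 13.8 FPKM at passage 5, and below it in Mist1- organoids, at 6.30 against 16.85 FPKM. In KO organoids Pparg was below Ppard at passage 5 (7.14 against 11.1 FPKM) and above it at passages 10 (13.4 against 10.8 FPKM) and 15 (10.65 against 8.57 FPKM).

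**Figure D1:**
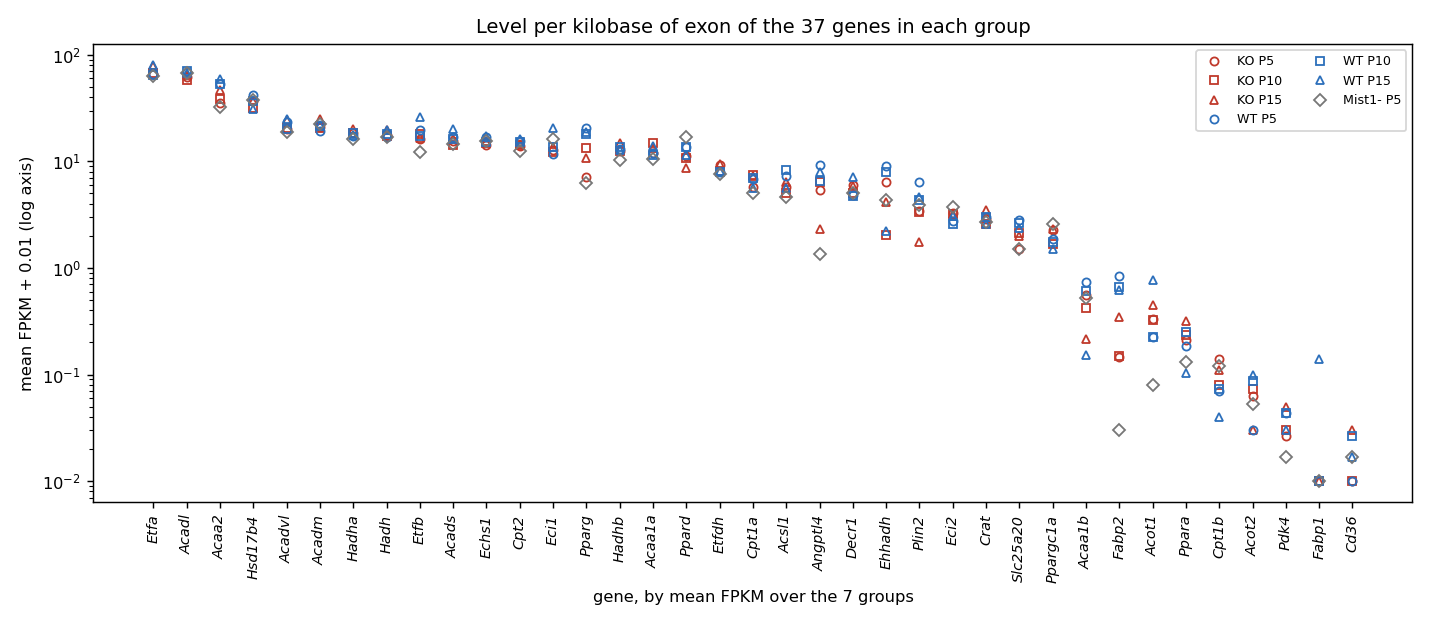
Mean FPKM plus 0.01 (log axis) of the 37 genes in each of the 7 groups, ordered by their mean over groups. KO groups are red, WT groups blue and Mist1- organoids grey. Etfa and Acadl sit at the top and Fabp1 and Cd36 at the bottom, and Pparg spans 6.30 to 20.75 FPKM.

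Several genes best known from liver, muscle, intestine or fat were at or near the limit of detection. Fabp1, a fatty acid binding protein of liver, had 3 counts in all, in 1 WT library at passage 15. No count in the other 6 groups allows up to 0.0569 to 0.0661 CPM over the libraries of a group. Cd36, a fatty acid transporter, had 9 counts over 7 libraries, and Pdk4, the kinase that slows pyruvate oxidation when fat is burned, had 28 counts over 14 libraries. Acot2, a mitochondrial acyl-CoA thioesterase, had 40 counts in all. Cpt1b, the muscle form of carnitine palmitoyltransferase, had 95, and 77.1% of its 75-base words also occur in the overlapping gene Gm44502. These 5 genes were too low to test. Fabp2, an intestinal fatty acid binding protein, passed the low-count filter only through 5 WT Mist1+ libraries. The filter thus favoured a difference from the other groups, so its counts are described without a test and it is left out of the counts of members that rose or fell. Ppara, Acot1 and the peroxisomal thiolase gene Acaa1b each passed in 13 to 16 libraries, and the other 28 tested members passed in all 21.

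In the plot of centred levels, the mitochondrial genes varied less than many of the other members. Over the 7 groups, the highest group mean of the 15 mitochondrial β-oxidation and electron transfer genes was 1.15 to 2.10 times the lowest, with a median of 1.30. For the other 17 tested members, Fabp2 included, the ratio was 1.28 to 42.0, with a median of 2.00. The ranges overlap, as Cpt2 was at 1.28 among these and Etfb at 2.10 among the mitochondrial genes. The wide end held Ppara, Pparg, Plin2, Ehhadh, Acaa1b, Angptl4, Acot1 and Fabp2, with ratios of 3.43 for Ppara up to 42.0 for Fabp2, whose lowest group had 1 count. The filter favoured a difference for Fabp2, and the next highest ratio was 10.75, for Acot1. Ppara, Acaa1b and Acot1 also had few counts, which can widen such a ratio. The wide-end genes with more counts were Angptl4 (7.125), Ehhadh (4.703), Plin2 (3.893) and Pparg (3.435). The narrow end held Hadh, the 3-hydroxyacyl-CoA dehydrogenase, at 1.15, and Hadha at 1.21.

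**Figure D2:**
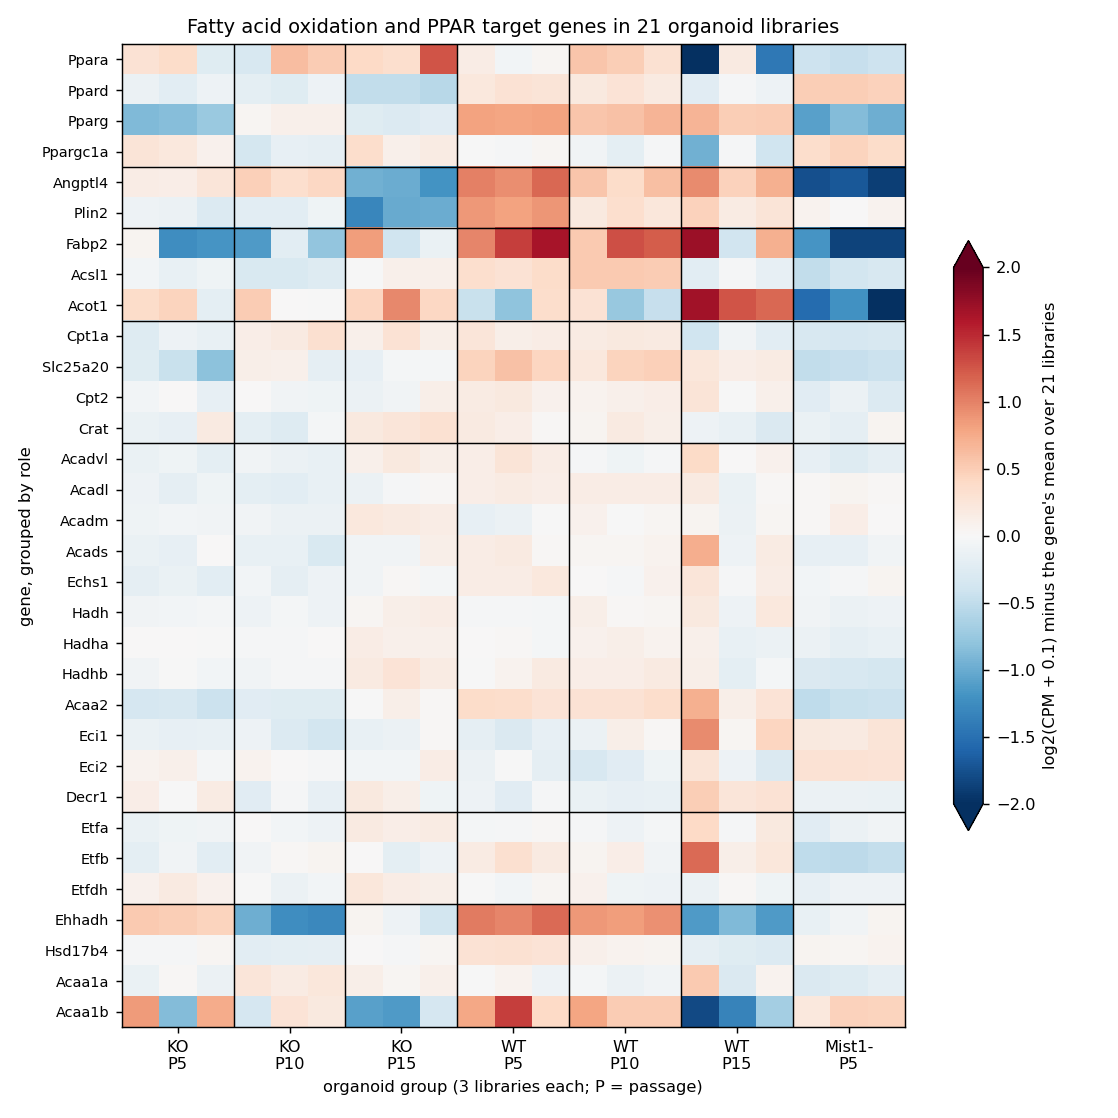
Level of the 32 tested genes in each of the 21 libraries, as log2(CPM + 0.1) minus the gene's mean over libraries, with genes ordered by role and groups as KO at 3 passages, WT at 3 passages and Mist1-. The block of mitochondrial genes is pale, while Pparg, Angptl4, Plin2, Fabp2, Acot1, Ehhadh and Acaa1b carry the strong colours.

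In KO against WT organoids at passage 5, every member that passed the test was lower. Pparg was 20.7 ± 1.0 CPM in KO and 63.9 ± 0.50 CPM in WT libraries (SD, n = 3 each), and the droplet coat gene Plin2, the secreted lipase inhibitor gene Angptl4 and the mitochondrial carnitine-acylcarnitine carrier gene Slc25a20 were lower with it. With edgeR's quasi-likelihood test and Benjamini-Hochberg adjustment over all genes, 14 of the 31 members other than Fabp2 fell, 0 rose and 17 were not called. Over all genes tested, 30.1% were called and 17.0% were lower. The median log2 fold change was -0.22 over the 31 members and 0 over all genes.

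Among the factors, Pparg (chromosome 6, 115360951 to 115490399, plus strand, GRCm38), the receptor best known from fat cell differentiation, had 19.9, 20.3 and 21.9 CPM in KO libraries at passage 5, against 64.1, 63.4 and 64.3 CPM in WT libraries. The KO libraries lay far below the WT ones with no overlap, and the log2 fold change was -1.63 ± 0.067 (SE, edgeR adjusted p = 1.1e-13). Ppard (chromosome 17, 28232700 to 28301474, plus strand), the widely expressed receptor, had 83.3, 78.1 and 84.6 CPM in KO and 105, 111 and 108 CPM in WT libraries. Its decrease was smaller, with a log2 fold change of -0.40 ± 0.057 (edgeR adjusted p = 1.55e-05). Ppara (chromosome 15, 85734983 to 85802819, plus strand), the receptor that drives fat burning in liver, had 0.831, 0.891 and 0.543 CPM in KO and 0.746, 0.635 and 0.686 CPM in WT libraries, and these overlap. The coactivator gene Ppargc1a, known for its part in mitochondrial biogenesis, was at 14.6 ± 0.89 CPM in KO and 12.8 ± 0.28 CPM in WT libraries and was not called (log2 0.19, edgeR adjusted p = 0.348).

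Both tested lipid-responsive targets fell. Plin2 (chromosome 4, 86648386 to 86670060, minus strand) had 12.2, 12.0 and 10.8 CPM in KO libraries, against 23.9, 22.9 and 24.1 CPM in WT libraries. Angptl4 (chromosome 17, 33773750 to 33781830, minus strand) had 18.5, 18.2 and 19.6 CPM in KO libraries, against 33.5, 31.6 and 37.0 CPM in WT libraries. For each gene the groups were well separated, with log2 fold changes of -1.01 ± 0.09 for Plin2 (edgeR adjusted p = 2.21e-08) and -0.86 ± 0.101 for Angptl4 (edgeR adjusted p = 1.1e-06). Fabp2 (chromosome 3, 122895072 to 122899506, plus strand) had 0.277, 0.052 and 0.060 CPM in KO and 0.611, 0.847 and 1.03 CPM in WT libraries. That is 5, 1 and 1 counts in KO and 9, 12 and 15 counts in WT libraries, a few reads without overlap between the groups. Acsl1, which joins long-chain fatty acids to coenzyme A, was at 59.3 ± 2.0 CPM in KO and 79.7 ± 2.5 CPM in WT libraries and fell (log2 -0.43).

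Of 4 tested carnitine shuttle genes, 3 fell. Slc25a20 was at 7.16 ± 1.4 CPM in KO and 14.1 ± 0.92 CPM in WT libraries, a log2 fold change of -0.97 ± 0.121 (edgeR adjusted p = 2.4e-06). Cpt1a, the outer membrane enzyme that sets the pace of entry into mitochondria, was at 43.4 ± 2.4 CPM in KO and 54.7 ± 2.4 CPM in WT libraries (log2 -0.33). The inner membrane enzyme gene Cpt2 fell by 0.22 on the log2 scale, but its call was lost under 7 of 14 alternatives (edgeR or limma adjusted p up to 0.281), which leaves 2 of 4 there. Of the 12 mitochondrial β-oxidation genes 4 fell, which were Acaa2 (log2 -0.69), the hydratase gene Echs1 (-0.34), the very long-chain dehydrogenase gene Acadvl (-0.32) and Acadl (-0.27). That is 33.3% of these 12, against 30.1% of all genes called and 17.0% lower. The carnitine, electron transfer and peroxisomal sets hold only 3 or 4 tested genes each. None of the 3 electron transfer genes was called. Of the 4 peroxisomal genes, Ehhadh, the bifunctional enzyme and a textbook PPARα target in rodent liver, and Hsd17b4, the second multifunctional enzyme, fell. Ehhadh (chromosome 16, 21761287 to 21787807, minus strand) had 19.3, 19.0 and 18.3 CPM in KO libraries, against 27.7, 26.6 and 29.3 CPM in WT libraries, a log2 fold change of -0.56 ± 0.094 (edgeR adjusted p = 8.45e-05).

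With library totals alone as scaling, 2 members were called higher (Decr1 and Etfdh) and 14 lower at passage 5, Fabp2 included. The same 2 were called higher, with 17 lower, when only the KO and WT libraries of passage 5 set the spread, and with 19 lower without WT passage 15 in the fit. Over all genes 7035 and 7095 were called in these 2 fits, against 4547 with all 21 libraries. The absence of higher members thus depends on the scaling and on the libraries that set the spread. The 6 pit cell markers summed to 1444 to 1468 CPM in KO and 4957 to 5102 CPM in WT libraries, with none of the 6 at 0, and 6 proliferation genes to 1982 to 2032 CPM in KO and 1350 to 1411 CPM in WT libraries. The mucous neck markers Muc6 and Tff2 summed to 96.4 to 97.4 CPM in KO and 23.9 to 27.4 CPM in WT libraries. The 8 intestinal markers summed to 1110 to 1136 CPM in KO and 1218 to 1234 CPM in WT libraries, and the 5 adipocyte ones to 20.4 to 24.9 CPM in KO and 34.1 to 39.4 CPM in WT libraries. Adipoq and Plin1 had no counts, and Lipe, the highest adipocyte marker, is also one of the further pathway genes given below. The adipocyte sum is thus no measure of fat cells. The part of the pit cell, proliferation, mucous neck and intestinal markers in the differences was not tested. In bulk RNA fewer cells of a type and less RNA per cell cannot be told apart.

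**Figure D3:**
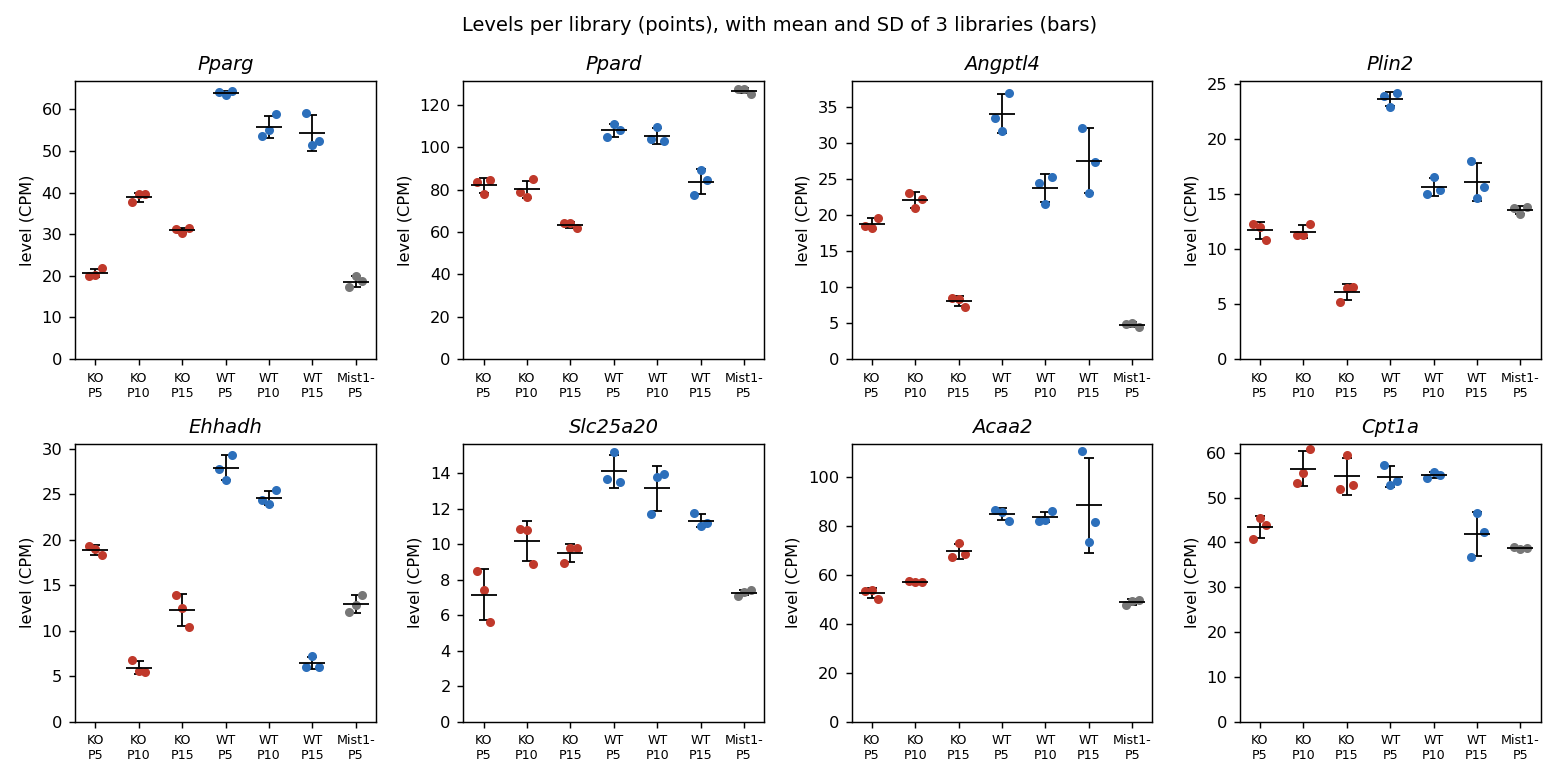
Level in CPM of 8 genes in every library (points) with the mean and SD of the 3 libraries of a group (bars), KO groups in red, WT groups in blue and Mist1- in grey. Pparg sits at 19.9 to 21.9 CPM in KO libraries at passage 5, below all WT Mist1+ libraries, and Ehhadh is at its lowest in KO passage 10 and WT passage 15.

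At passage 10 Ehhadh had the smallest adjusted p of the members. Pparg, Ppard and Plin2 were again lower in KO than in WT organoids, and Angptl4 was not called. In KO against WT organoids 11 of the 31 members other than Fabp2 fell, 0 rose and 20 were not called, against 34.4% of all genes called and 18.5% lower. The median log2 fold change was -0.15 over the members and -0.01 over all genes.

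Ehhadh had 6.74, 5.62 and 5.45 CPM in KO libraries at passage 10, against 24.4, 23.9 and 25.4 CPM in WT libraries. The groups were far apart, with a log2 fold change of -2.05 ± 0.108 (edgeR adjusted p = 5.97e-12). Pparg had 37.7, 39.5 and 39.5 CPM in KO and 53.7, 54.9 and 58.8 CPM in WT libraries, a smaller gap than at passage 5 (log2 -0.52 ± 0.064, edgeR adjusted p = 2.14e-06). Ppard had 78.9, 76.6 and 84.8 CPM in KO and 104, 110 and 103 CPM in WT libraries (log2 -0.39 ± 0.057, edgeR adjusted p = 1.51e-05). Ppara had 0.513, 1.07 and 0.99 CPM in KO and 1.02, 0.978 and 0.845 CPM in WT libraries and overlapped.

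Plin2 had 11.2, 11.2 and 12.3 CPM in KO and 15.0, 16.6 and 15.3 CPM in WT libraries (log2 -0.43 ± 0.093, edgeR adjusted p = 0.00111). Angptl4 overlapped between the groups, at 23.1, 20.9 and 22.3 CPM in KO and 24.5, 21.5 and 25.2 CPM in WT libraries, and was not called (edgeR adjusted p = 0.46). Acsl1 fell to 51.6 ± 0.98 CPM in KO libraries, against 90.7 ± 0.25 CPM in WT libraries (log2 -0.81). Fabp2 had 0.064, 0.213 and 0.110 CPM in KO and 0.420, 0.783 and 0.739 CPM in WT libraries, again without overlap. The other members that fell were Slc25a20 (log2 -0.38), the carnitine acetyltransferase gene Crat (-0.28), Acaa2 (-0.55), Acadl (-0.34), Hadhb (-0.19) and Hsd17b4 (-0.27). Under 14 alternatives the call was lost 9 times for Hadhb, each time a replicate was left out among them, 7 times for Crat and 5 times for Slc25a20 (edgeR or limma adjusted p up to 0.155, 0.129 and 0.114).

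When the spread was estimated from the KO and WT libraries of passage 10 alone, 18 members were lower and 2 higher (Eci2 and Acaa1a). Over all genes 7551 were then called, against 5204 with all 21 libraries. With library totals alone 9 members, Fabp2 included, were lower and 2 higher. Pit cell markers summed to 2342 to 2540 CPM in KO and 6814 to 7066 CPM in WT libraries, proliferation genes to 2257 to 2341 CPM in KO and 1549 to 1580 CPM in WT libraries, and intestinal markers to 868 to 903 CPM in KO and 1403 to 1418 CPM in WT libraries. Their part was not tested.

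At passage 15 the members moved both ways. Pparg, Ppard, Angptl4 and Plin2 were again lower in KO than in WT organoids, while Ehhadh was higher. Of the 31 members other than Fabp2 11 rose, 10 fell and 10 were not called, against 48.9% of all genes called, 23.6% higher and 25.3% lower. The median log2 fold change was -0.03 over the 31 members and -0.01 over all genes. When only the KO and WT libraries of passage 15 set the spread, 6 members were called, which were Ppard, Pparg, Angptl4 and Plin2 (lower) and Ehhadh and Crat (higher). Over all genes 2735 were then called, against 7396 with all 21 libraries.

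Angptl4 had 8.49, 8.35 and 7.24 CPM in KO libraries, against 32.1, 23.0 and 27.4 CPM in WT libraries (log2 -1.77 ± 0.111, edgeR adjusted p = 4.37e-11). Plin2 had 5.22, 6.43 and 6.55 CPM in KO libraries, against 18.0, 14.6 and 15.6 CPM in WT libraries (log2 -1.40 ± 0.101, edgeR adjusted p = 3.8e-10). For both genes the KO libraries were the lowest of all Mist1+ libraries. Pparg had 31.1, 30.3 and 31.4 CPM in KO and 59.1, 51.4 and 52.3 CPM in WT libraries (log2 -0.81 ± 0.065, edgeR adjusted p = 2.58e-09). Ppard had 64.1, 64.1 and 61.8 CPM in KO and 77.3, 89.1 and 84.7 CPM in WT libraries (log2 -0.40 ± 0.058, edgeR adjusted p = 1.02e-05). The Ppard difference was thus of nearly the same size at each passage.

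Ehhadh had 13.9, 12.5 and 10.4 CPM in KO and 6.04, 7.19 and 6.03 CPM in WT libraries, a log2 fold change of 0.93 ± 0.113 (edgeR adjusted p = 1.09e-06). This is the opposite direction to passages 5 and 10, and the WT level had dropped below that of the KO. Crat was at 18.3 ± 0.75 CPM in KO and 13.6 ± 0.91 CPM in WT libraries (log2 0.43). Ppara had 0.910, 0.870 and 1.72 CPM in KO and 0.072, 0.766 and 0.185 CPM in WT libraries, that is 15, 15 and 30 counts against 1, 13 and 3 counts, with a log2 fold change of 1.69 ± 0.472 (edgeR adjusted p = 0.00591). The spread of the WT counts is wide, and the adjusted p was 0.111 with only these groups.

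Acot1 (chromosome 12, 84009490 to 84018371, plus strand), a cytosolic acyl-CoA thioesterase, had 1.46, 2.15 and 1.44 CPM in KO and 3.60, 2.65 and 2.46 CPM in WT libraries (log2 -0.78 ± 0.297, edgeR adjusted p = 0.0359). Of its 75-base words 15.0% also occur in other genes, mainly Acot2, so its counts are uncertain, and the call was lost without KO replicate 1 or 3, without WT replicate 1, or with only these groups (edgeR adjusted p at most 0.133). Fabp2 had 0.546, 0.174 and 0.230 CPM in KO and 1.08, 0.177 and 0.493 CPM in WT libraries and overlapped. The other members that were called had smaller differences. Higher in KO were Ppargc1a (log2 0.61), Cpt1a (0.39), Hadhb (0.25), Hsd17b4 (0.24), the flavoprotein oxidoreductase gene Etfdh (0.22), Acsl1 (0.19), the medium-chain dehydrogenase gene Acadm (0.19) and Hadha (0.17). Lower were Etfb (-0.66), the isomerase gene Eci1 (-0.60), Acaa2 (-0.34), the dienoyl-CoA reductase gene Decr1 (-0.27) and Echs1 (-0.15). All of these 13 calls were lost with only the compared groups.

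One WT library of passage 15, replicate 1, was the high one for several of these genes. Acaa2 had 110 CPM there and 73.3 and 81.3 CPM in replicates 2 and 3, Etfb 44.7 against 22.2 and 24.0 CPM, and Eci1 58.1 against 30.9 and 40.4 CPM. Without it 12 members were higher and 7 lower, and Acaa1a, the main peroxisomal thiolase gene, moved to the other side and was called higher (log2 0.18). Pit cell markers summed to 4714 to 4797 CPM in KO and 914 to 1539 CPM in WT libraries at passage 15, the reverse of the earlier passages. Intestinal markers summed to 1073 to 1080 CPM in KO and 441 to 634 CPM in WT libraries, and the part of either was not tested. Some counts are shared with other genes, as 39.6% of the 75-base words of Etfb also occur in Gm45233 and 16.7% of those of Hadhb in other genes, mainly Gm13910.

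In WT organoids, few members were called at passage 10 and many at passage 15. At passage 10 against 5, 3 of 31 members fell and 0 rose, against 4.88% of all genes called and 2.84% lower. These were Plin2 (log2 -0.60 ± 0.089, edgeR adjusted p = 0.000152), Angptl4 (-0.52 ± 0.099, edgeR adjusted p = 0.0022) and Hsd17b4 (-0.22 ± 0.044, edgeR adjusted p = 0.00319). With only the 2 compared groups 4 members were higher and 6 lower. Of all genes 2827 were then called, against 738 with all 21 libraries. At passage 15 against 5, 4 rose and 12 fell, against 51.3% of all genes called, 24.7% higher and 26.6% lower, a share of calls close to that of all genes. With only the compared groups 3 rose and 7 fell, and 3631 of all genes were called, against 7761 with all 21 libraries. The median of the 31 members was -0.05, and that of all genes -0.02. With library totals alone 7 were higher and 9 lower, and without WT replicate 2 of passage 15 there were 9 higher and 11 lower. Of the 16 calls, 10 held under every alternative. Pit cell markers summed to 4957 to 5102, 6814 to 7066 and 914 to 1539 CPM in WT libraries of passages 5, 10 and 15, and intestinal ones to 1218 to 1234, 1403 to 1418 and 441 to 634 CPM. Their part in the changes with passage was not tested.

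The member with the smallest adjusted p at passage 15 in WT organoids was Ehhadh, at 27.7, 26.6 and 29.3 CPM (passage 5), 24.4, 23.9 and 25.4 CPM (passage 10) and 6.04, 7.19 and 6.03 CPM (passage 15). Its log2 fold change at passage 15 was -2.11 ± 0.107 (edgeR adjusted p = 1.32e-12). Acaa1b (chromosome 9, 119148023 to 119157093, minus strand) had 1.36, 2.12 and 1.03 CPM (passage 5), 1.38, 1.11 and 1.11 CPM (passage 10) and 0.144, 0.236 and 0.431 CPM (passage 15). The log2 fold change at passage 15 was -2.41 ± 0.488 (edgeR adjusted p = 0.000365). These are 20, 30 and 15 counts at passage 5 and 2, 4 and 7 counts at passage 15, and 32.3% of its 75-base words occur elsewhere, mostly in Acaa1a. Acot1 rose, with 0.746, 0.564 and 1.37 CPM (passage 5), 1.32, 0.587 and 0.739 CPM (passage 10) and 3.60, 2.65 and 2.46 CPM (passage 15). The log2 fold change at passage 15 was 1.68 ± 0.336 (edgeR adjusted p = 0.000327). The other 3 that rose were Eci1 (log2 0.73), Decr1 (0.47) and Etfa (0.21). The other 10 that fell included Hsd17b4 (log2 -0.52), Acsl1 (-0.46), Cpt1a (-0.38) and Ppard (-0.37).

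In KO organoids Pparg was the member that rose most between passages 5 and 10, by a log2 fold change of 0.91 ± 0.068 (edgeR adjusted p = 8.72e-09), and Ehhadh fell most (-1.67 ± 0.11, edgeR adjusted p = 1.33e-09). At passage 10 against 5, 3 members rose and 3 fell, against 7.61% of all genes called, 3.89% higher and 3.72% lower. Cpt1a (log2 0.38) and Slc25a20 (0.50) also rose, and Acsl1 (-0.20) and Hsd17b4 (-0.20) also fell. Of these calls, that of Acsl1 was lost under 8 of 14 alternatives, that of Slc25a20 under 3 and that of Hsd17b4 under 1. With only the compared groups 5 were higher and 6 lower, and 3059 of all genes were called, against 1150 with all 21 libraries. Pit cell markers summed to 1444 to 1468, 2342 to 2540 and 4714 to 4797 CPM in KO libraries of passages 5, 10 and 15, and their part in the changes with passage was not tested.

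At passage 15 against 5 in KO organoids, 8 members rose and 4 fell, against 13.0% of all genes called, 5.77% higher and 7.20% lower. The median was 0.12 over the 31 members and 0 over all genes. Angptl4 (log2 -1.23 ± 0.113, edgeR adjusted p = 7.81e-08), Plin2 (-0.94 ± 0.102, edgeR adjusted p = 8.05e-07), Ehhadh (-0.62) and Ppard (-0.37) fell. Pparg rose by 0.58 ± 0.069 (log2, edgeR adjusted p = 2.74e-06). So did Acaa2 (log2 0.41), Slc25a20 (0.40), Cpt1a (0.33), Acadvl (0.28), Etfa (0.26), Acadm (0.25) and Hadhb (0.25), of which 5 are enzymes or carriers of electrons in mitochondrial β-oxidation. The calls of Slc25a20 and Etfa were lost under 5 of 14 alternatives each, and those of Acadvl and Hadhb under 2 each. With only the compared groups 15 were higher and 4 lower, and 4606 of all genes were called, against 1960 with all 21 libraries. Acaa1b, at 1.44, 0.367 and 1.33 CPM (passage 5), 0.577, 0.924 and 0.880 CPM (passage 10) and 0.303, 0.290 and 0.575 CPM (passage 15), was not called (edgeR adjusted p = 0.0528). Under 5 of 12 alternatives Acaa1b was called lower (edgeR or DESeq2 adjusted p down to 0.00363). Its log2 fold change was -1.806 to -1.067 over the alternatives. Counts of Acot1, at 1.38, 1.47 and 0.905 CPM (passage 5), 1.54, 1.07 and 1.04 CPM (passage 10) and 1.46, 2.15 and 1.44 CPM (passage 15), overlapped between passages.

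Whether passage acted differently in the genotypes was tested directly, as the change with passage in KO minus that in WT organoids. At passage 10 the interaction was positive for 5 members and negative for 2, against 5.93% of all genes called, 3.13% positive and 2.81% negative. Pparg (log2 1.11 ± 0.093, edgeR adjusted p = 6.01e-08) and Ehhadh (-1.49 ± 0.144, edgeR adjusted p = 5.37e-07) were the largest. The calls of Cpt1a and Slc25a20 were lost under 13 and 10 of 20 alternatives. At passage 15 it was positive for 10 and negative for 5, against 38.3% of all genes called, 19.7% positive and 18.6% negative. There Ehhadh was positive (1.49 ± 0.147, edgeR adjusted p = 9.01e-08), Pparg stayed positive (0.82) and Angptl4 was negative (-0.92). The Ehhadh term thus changed sign between passages 10 and 15, while KO Ehhadh was at 18.9, 5.93 and 12.3 CPM and WT Ehhadh at 27.9, 24.6 and 6.42 CPM at passages 5, 10 and 15. With only the groups compared, 9 were positive and 4 negative at passage 10. Of all genes 2951 were then called, against 897 with all 21 libraries. The comparisons share their passage 5 libraries.

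Between Mist1+ and Mist1- organoids at passage 5, most members that passed the test were higher in Mist1+. Angptl4 was 34.0 ± 2.7 CPM in Mist1+ and 4.78 ± 0.31 CPM in Mist1- libraries, and Pparg 63.9 ± 0.50 CPM in Mist1+ and 18.6 ± 1.4 CPM in Mist1- libraries. Of the 31 members other than Fabp2 16 rose, 5 fell and 10 were not called, against 35.0% of all genes called, 18.8% higher and 16.2% lower. The median log2 fold change was 0.25 over the 31 members and 0 over all genes.

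The WT Mist1+ libraries of passage 5 are those already given, and only the Mist1- values are new. Pparg had 17.2, 20.0 and 18.6 CPM in Mist1- libraries, all below the Mist1+ ones (log2 1.78 ± 0.068, edgeR adjusted p = 1.33e-14). Angptl4 had 4.85, 5.04 and 4.44 CPM in Mist1- libraries, the lowest of the 7 groups (log2 2.83 ± 0.119, edgeR adjusted p = 5.91e-14). Plin2 had 13.7, 13.1 and 13.8 CPM there (log2 0.80 ± 0.09, edgeR adjusted p = 3.34e-07). Ppard went the other way, with 127, 127 and 125 CPM in Mist1- libraries, the highest of the 7 groups (log2 -0.23 ± 0.057, edgeR adjusted p = 0.00288). Ppara had 0.473, 0.453 and 0.473 CPM in Mist1- libraries and was not called (log2 0.56, edgeR adjusted p = 0.414).

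Ehhadh had 12.1, 12.8 and 14.0 CPM in Mist1- libraries and rose in Mist1+ (log2 1.11 ± 0.098, edgeR adjusted p = 1.01e-08). Acot1 had 0.296, 0.397 and 0.118 CPM there (log2 1.69 ± 0.485, edgeR adjusted p = 0.00929), a call that was lost without Mist1- replicate 3 or Mist1+ replicate 3 (edgeR adjusted p at most 0.0874). Acaa1b, at 0.887, 1.08 and 1.06 CPM in Mist1- libraries, overlapped with Mist1+ and was not called. Fabp2 had 36 counts over the Mist1+ and 1 count over the Mist1- libraries, a difference that the filter favoured and that was not tested.

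Among uptake, binding and activation genes, Acsl1 rose with a log2 fold change of 0.73. In the carnitine shuttle Slc25a20 (log2 0.96), Cpt1a (0.49) and Cpt2 (0.36) rose and Crat was not called. Of the 12 mitochondrial β-oxidation genes 5 rose, with Acaa2 (0.79), Hadhb (0.40), Acadvl (0.38), Echs1 (0.17) and Hadha (0.15), and 3 fell, with Eci1 (-0.42), Eci2 (-0.38) and Acadm (-0.15). That is 66.7% of these 12 called, against 35.0% of all genes. Etfb (0.73) and Hsd17b4 (0.23) also rose and Ppargc1a fell (-0.39). Under 14 alternatives the call was lost 11 times for Hadha, median-ratio scaling and DESeq2 among them, 9 times for Echs1, 6 times each for Acadm, Eci1 and Ppargc1a, and once for Hsd17b4. When any 1 library was left out, 14 to 15 members were higher and 2 to 3 lower, Fabp2 included. With only the compared groups 20 were higher and 5 lower, and without WT passage 15 in the fit 22 were higher and 5 lower. Acadl, Acads, Etfa, Etfdh and Acaa1a were called higher in both of these fits. Over all genes 7713 and 7875 were called in them, against 5290 with all 21 libraries. Acadvl shares exonic bases with Dvl2 on the opposite strand (42.9% of its exonic bases), and the strand setting of the counting is not given in the sources used here. Pit cell markers summed to 4957 to 5102 CPM in Mist1+ and 595 to 627 CPM in Mist1- libraries, and the mucous neck markers Muc6 and Tff2 to 23.9 to 27.4 CPM in Mist1+ and 469 to 492 CPM in Mist1- libraries. The highest mucous neck sum, 491.6 CPM, was almost all Tff2, which reached 491.3 CPM. Intestinal markers summed to 1218 to 1234 CPM in Mist1+ and 801 to 817 CPM in Mist1- libraries. Their part in these differences was not tested.

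The KO and Mist1- groups of passage 5 were each set against the same WT Mist1+ libraries, so their differences are not independent. Side by side, Pparg was at 20.7 CPM in KO, 18.6 CPM in Mist1- and 63.9 CPM in WT Mist1+ libraries. Slc25a20 was at 7.16, 7.27 and 14.1 CPM and Acaa2 at 52.5, 48.8 and 84.7 CPM in the same order of groups. Angptl4 differed from this, at 18.8 CPM in KO, 4.78 CPM in Mist1- and 34.0 CPM in WT Mist1+ libraries, as did Ppard, at 82.0, 127 and 108 CPM in that order.

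A further list of 80 pathway genes, covering retinoid X receptors and coregulators, other PPAR targets and droplet genes, and other β-oxidation and ketone genes, had 62 tested. In KO against WT organoids 4 rose and 29 fell at passage 5, 7 rose and 29 fell at passage 10, and 21 rose and 11 fell at passage 15. These are 53.2%, 58.1% and 51.6% of the 62 genes, against 30.1%, 34.4% and 48.9% of all genes called, so the share at passage 15 was near that of all genes. The medians were -0.20, -0.21 and 0.07. At passage 5 the leading lower genes were Tsku, a secreted protein (log2 -1.60 ± 0.118, edgeR adjusted p = 1.06e-09), the peroxisomal oxidase gene Acox2 (-0.93) and the pantetheinase gene Vnn1 (-0.54), and the leading higher ones were Acat1 (0.39), Pprc1 (0.29) and Acadsb (0.37). At passage 10, Vnn1 (-0.83), the phytanoyl-CoA hydroxylase gene Phyh (-0.88) and the hormone-sensitive lipase gene Lipe (-1.04) led the lower genes, and Acsl5 (0.33), Acat1 (0.50) and Acadsb (0.65) the higher ones. At passage 15, Cpt1c (log2 -3.38 ± 0.222), Tsku (-1.45) and Slc27a1 (-0.90) led the lower genes, and the acetyl-CoA carboxylase gene Acacb (1.42 ± 0.153), Phyh (0.60) and Fabp5 (0.72) the higher ones. Phyh was thus lower at passage 10 and higher at passage 15, as Ehhadh was.

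In Mist1+ against Mist1- organoids 30 of these 62 genes rose and 13 fell (69.4%, against 35.0% of all genes called, 18.8% higher and 16.2% lower), led by Vnn1 (0.86), Acox2 (1.05) and Tsku (1.27) among the higher and by Plin3 (-0.61), Acadsb (-0.95) and Acat1 (-0.51) among the lower genes. Of the 12 tested retinoid X receptors and coregulators, 1 rose and 5 fell there, and 1 rose and 1 fell in KO against WT organoids at each of passages 5 and 10. At passage 15 the same 12 gave 6 higher and 1 lower. These 12 are few, and all-gene shares of 35.0%, 30.1%, 34.4% and 48.9% stand beside these comparisons. Over passages in WT organoids, 1 of the 62 genes rose and 2 fell at passage 10 (4.84%, against 4.88% of all genes), and 6 rose and 26 fell at passage 15 (51.6%, against 51.3% of all genes). Both shares were thus near those of all genes. In KO organoids 4 rose and 6 fell at passage 10 (16.1%, against 7.61% of all genes), and 7 rose and 3 fell at passage 15 (16.1%, against 13.0%).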

How the data were processed

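RNA-seq was deposited for 21 organoid libraries in 7 groups of 3, grouped by their labels. Another 6 of the 27 labelled samples, sorted cells of 2 diets, were not analysed here. The deposited table holds raw read counts per gene, made by the authors with cutadapt 1.9.1, HISAT2 2.2.1 and HTSeq 0.6.1, per the submitters' processing notes, which name GRCm38.p5. It also holds FPKM values computed by the authors, which equalled the count over exonic length and library total within 0.006 in 100% of values. Gene positions are from GENCODE M21 (GRCm38). The 37 genes and the further gene lists were chosen with earlier results of these data known.

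Robust quasi-likelihood F-tests of the counts were run in edgeR 4.0.16 under R 4.3.3, with TMM scaling and 1 mean per group over all 21 libraries. The filterByExpr cutoffs were 10 (count) and 15 (total), which left 15115 genes with 99.91% of counts. Rose and fell mean a Benjamini-Hochberg adjusted p under 0.05 over all genes tested. The SE was taken from F as |log2 fold change| / √F. Library totals of 13805585 to 19608956 set the precision. The code was tested on simulated data.

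There were 10 comparisons, KO against WT at 3 passages, Mist1+ against Mist1-, passages 10 and 15 against 5 in each genotype, and 2 interactions. Alternatives were median-ratio scaling, no filter, DESeq2 1.42.0, limma 3.58.1 on log2(FPKM + 1) for genes with a mean FPKM of at least 1, only the groups compared, a fit without WT passage 15, the replicate number as a block, and each replicate left out. Library totals alone were added after seeing the data. Every value is given per library for the PPAR genes and for members called with a log2 fold change of at least 1 in size between 2 groups. Other pathway genes are named by the 3 smallest adjusted p in each direction. Marker lists are summed CPM. Fabp2 passed the filter only through WT Mist1+ libraries and is described without a test.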

Additional observations from a re-analysis of the deposited data

Results flagged for a closer look

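By the interaction test in edgeR, the difference between KO and WT organoids changed with passage for 15 of the genes. KO and WT organoids came from different lines, and the knockout cannot be told apart from other differences between the lines. The interaction is the change with passage in KO minus that in WT organoids (log2, Benjamini-Hochberg adjustment). At passage 10 against 5 it was 1.11 for Pparg (adjusted p = 6.01e-08), 0.75 for Angptl4 (adjusted p = 0.00183), 0.60 for Slc25a20 (adjusted p = 0.0377), 0.59 for Plin2 (adjusted p = 0.00681) and 0.37 for Cpt1a (adjusted p = 0.0426). It was -1.49 for Ehhadh (adjusted p = 5.37e-07) and -0.39 for Acsl1 (adjusted p = 0.00478). Over all genes 5.93% were called, and the calls of Cpt1a and Slc25a20 were lost under 13 and 10 of 20 alternatives.

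At passage 15 against 5 the edgeR interaction was 1.49 for Ehhadh (adjusted p = 9.01e-08), 0.82 for Pparg (adjusted p = 7.41e-07), 0.72 for Cpt1a (adjusted p = 2.56e-05), 0.72 for Slc25a20 (adjusted p = 0.00231) and 0.62 for Acsl1 (adjusted p = 5.85e-06). It was 0.59 for Crat (adjusted p = 0.00248), 0.54 for Hsd17b4 (adjusted p = 8.91e-07), 0.37 for Hadhb (adjusted p = 0.00331), 0.35 for Acaa2 (adjusted p = 0.0456) and 0.29 for Acadvl (adjusted p = 0.0316). It was -0.39 for Plin2 (adjusted p = 0.0304), -0.48 for Decr1 (adjusted p = 0.00394), -0.65 for Eci1 (adjusted p = 0.0157), -0.92 for Angptl4 (adjusted p = 7.22e-05) and -1.27 for Acot1 (adjusted p = 0.0395). Ehhadh, Acsl1, Angptl4 and Plin2 have opposite signs in the 2 interactions. Those of passage 15 rest on the WT libraries of that passage, which vary most, and 38.3% of all genes were called. Of the 15 calls 11 held under every alternative run, while that of Acaa2 was lost under 16 of 19, Acadvl under 10 of 19, Plin2 under 7 of 19 and Acot1 under 7 of 18.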

How the results depend on the processing

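All counts here include Fabp2. Over the 10 comparisons, 137 recomputed counts of called members stayed within 1.5 times the reported count and 12 did not, all where the spread was estimated without distant groups. With only the groups compared there were 20 calls for KO over WT at passage 10, 6 at passage 15, 10 for WT passage 10 over 5, 10 for WT passage 15 over 5, 11 for KO passage 10 over 5, 19 for KO passage 15 over 5 and 13 for the interaction at passage 10. Without WT passage 15 in the fit, the counts were 21 for KO over WT at passage 10, 10 for WT passage 10 over 5, 11 for KO passage 10 over 5, 20 for KO passage 15 over 5 and 13 for the interaction at passage 10. The count of all genes called moved in the same direction in each of these cases. For KO over WT at passage 10 it was 7551 with only the groups compared, against 5204 with all 21 libraries. At passage 15 these counts were 2735 and 7396. The WT libraries of passage 15 vary most, and other causes were not tested.

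Leaving out 1 replicate at a time gave 14 to 15 calls for KO over WT at passage 5, 9 to 11 at passage 10 and 19 to 26 at passage 15, and 17 to 18 for Mist1+ over Mist1-. It gave 3 in every case for WT passage 10 over 5, 13 to 20 for WT passage 15 over 5, 4 to 6 for KO passage 10 over 5, 9 to 11 for KO passage 15 over 5, and 5 to 6 and 11 to 18 for the interactions at passages 10 and 15. Acaa1a changed direction for KO over WT at passage 15 (log2 -0.05, not called), to 0.182 without WT replicate 1, with -0.224 as the lowest value, without WT replicate 2. Of all single-gene values, 4352 kept their side of the threshold, 224 lost a call, 141 gained one and 1 reversed. Direction was compared only where a call was made, so values never called could change sign and still count as kept. Acadvl, for example, ran from log2 -0.096 to 0.093 for KO over WT at passage 15.

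Equal replicate numbers did not pair the libraries, since their correlations were -0.031 to 0.027. With the replicate block the 10 counts were 15, 12, 20, 21, 3, 16, 6, 12, 7 and 15, in the order KO over WT at 3 passages, Mist1+ over Mist1-, WT and then KO passages 10 and 15 over 5, and the interactions. Of the members called, those that held under all alternatives were 14 of 15 for KO over WT at passage 5, 8 of 12 at passage 10, 6 of 21 at passage 15 and 15 of 22 for Mist1+ over Mist1-. Fabp2, whose difference the filter favoured, is among those that held at passage 5 and for Mist1+ over Mist1-. Depth limits Ppara, Fabp2, Acot1 and Acaa1b, at under 4 CPM in every library, and leaves 5 genes untested.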

Other observations

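Beside the genes of the report, several other genes of the list of 80 pathway genes followed their own course over passages. Hilpda, which inhibits lipolysis at lipid droplets, had mean levels of 11.5, 13.7 and 6.91 CPM in KO and 18.6, 9.75 and 11.5 CPM in WT organoids at passages 5, 10 and 15, so KO was lower at passage 5 (edgeR adjusted p = 7.71e-05), higher at passage 10 (edgeR adjusted p = 0.00289) and lower at passage 15 (edgeR adjusted p = 9.16e-05). Acacb, the acetyl-CoA carboxylase whose product inhibits CPT1, had 10.25, 10.9 and 14.1 CPM in KO and 16.1, 17.2 and 5.29 CPM in WT organoids. Its interaction at passage 15 was 2.07 ± 0.206 (log2, edgeR adjusted p = 1.09e-07). Cpt1c, a brain form of CPT1, had 3.72, 0.924 and 1.18 CPM in KO and 2.35, 1.94 and 12.3 CPM in WT organoids, with an interaction of -4.04 ± 0.319 at passage 15 (edgeR adjusted p = 3.11e-09).

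Acsl5, an acyl-CoA synthetase best known from intestine, had 572, 763 and 675 CPM in KO and 656, 607 and 633 CPM in WT organoids over the same passages. It was lower in KO at passage 5 (log2 -0.20, edgeR adjusted p = 0.00145) and higher at passage 10 (0.33), while Acsl1 was lower at both (-0.43 and -0.81). These genes were named after their values were seen.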
